A study of Mus musculus with 8 samples.

Results

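The genes described here are the classical SR protein genes, *Srsf1*, *Srsf2*, *Srsf3*, *Srsf4*, *Srsf5*, *Srsf6*, *Srsf7*, *Srsf9*, *Srsf10* and *Srsf11*. They were taken by symbol from the count tables, where they make up 10 of the 40840 genes listed, and all 10 passed the filter on low counts. Whole testes were collected at 12 days of age (P12) from 4 wild type and 4 *Tra2b-cPEko* mice on a C57BL/6J background. Mice called wild type had the genotype *Tra2bPE* fl/+, so that they carried a floxed *Tra2b* poison exon beside a normal allele and no Cre transgene. *Tra2b-cPEko* mice had the genotype *Tra2b* fl/-;Vasa-Cre. Their germ cells lose the poison exon from the floxed allele through Vasa-Cre, which acts in the germ line before birth, whereas the deleted allele is present in every cell. Somatic cells of the *Tra2b-cPEko* testis therefore kept a floxed exon, and Cre itself was present in only this genotype. The labels give the cell type as mixed, and per the methods each testis came from a separate mouse, with small differences in exact age that could alter which cell types were present.

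SR proteins bind pre-mRNA through RNA recognition motifs and recruit the splicing machinery through a domain rich in arginine and serine. Most of their genes contain a poison exon, a short exon with a stop codon whose inclusion sends the transcript to nonsense-mediated decay, and many SR proteins promote inclusion of their own poison exon and of those in related genes. The question addressed by the comparison is whether the levels of these genes differed in testes in which the germ cells had lost the poison exon of *Tra2b*, the gene for the SR-like splicing activator Tra2β.

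The libraries held 36757386 to 59101569 reads on genes, and each SR protein gene had at least 4901 reads in every mouse. Levels are given as CPM, the read count of a gene scaled to the library total after TMM normalisation. Of the 19104 genes tested, 30 were called by edgeR (Benjamini-Hochberg adjusted p under 0.05). *Tra2a*, the paralogue of the targeted gene, was called lower, with 129 ± 15.3 CPM in wild type and 69.5 ± 3.36 CPM in *Tra2b-cPEko* testes (SD, n = 4 each; edgeR adjusted p = 0.00231). *Tra2b* had 164 ± 8.93 and 198 ± 8.49 CPM (SD, n = 4 each), with an edgeR adjusted p of 0.0552 and a DESeq2 adjusted p of 0.000195. A count over the whole gene does not show whether the exon was removed. The wild type libraries were not uniform in spermatocyte markers. The summed level of 19 leptotene and zygotene markers was 2879 and 2559 CPM in wild type A and B, 2146 and 2263 CPM in C and D, and 2201 to 2278 CPM in *Tra2b-cPEko* mice. The 8 pachytene markers tested summed to 343 and 353 CPM in A and B, 204 and 232 CPM in C and D, and 217 to 270 CPM in *Tra2b-cPEko* mice.

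Candidate poison exons from the annotation are shown because the counts of an SR protein gene add up transcripts with and without them. In GENCODE vM39 (GRCm39), decay transcripts outnumber coding ones for *Srsf4* (27 against 6), *Srsf5* (55 against 36), *Srsf7* (35 against 16), *Srsf9* (29 against 4) and *Srsf10* (30 against 11). They are as many as the coding ones for *Srsf3* (21 of each), *Srsf11* (16) and *Srsf6* (5), and fewer for *Srsf1* (3 against 7) and *Srsf2* (5 against 8). For each gene with primers of the study on its locus, the internal exon carried by most decay transcripts between these primers was taken. For *Srsf6*, no single one of 3 candidate exons met this rule, so none was taken. Sequences are given from the first base of the exon to the first stop codon in the reading frame, which is in capitals. For *Srsf5*, *Srsf7* and *Srsf11*, the product sizes of the study's primers imply exons of other lengths than those taken. For *Srsf9* they imply an exon of the length taken, which does not show that it is the same exon. For the other genes, the exon taken need not be the one that the primers detect.
Srsf3, chr17:29258428-29258883, plus strand, a 456-base exon in 13 decay transcripts: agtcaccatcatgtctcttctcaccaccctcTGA
Srsf4, chr4:131611587-131611793, plus strand, a 207-base exon in 15 decay transcripts: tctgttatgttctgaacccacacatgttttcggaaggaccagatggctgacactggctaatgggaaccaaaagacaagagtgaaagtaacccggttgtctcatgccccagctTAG
Srsf5, chr12:80994903-80995240, plus strand, a 338-base exon in 7 decay transcripts: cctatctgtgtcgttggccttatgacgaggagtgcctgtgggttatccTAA
Srsf7, chr17:80512404-80512510, minus strand, a 107-base exon in 9 decay transcripts: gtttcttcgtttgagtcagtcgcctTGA

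The stop codon printed is the annotated end of the reading frame in 12 of the 13 decay transcripts for *Srsf3*, all 15 for *Srsf4*, 6 of 7 for *Srsf5* and all 9 for *Srsf7*. In *Srsf9* the matching exon has 90 bases, and only 1 of its 13 transcripts ends at the first stop codon in it. In *Srsf11* it has 117 bases, and 1 of its 6 transcripts does. In *Srsf10* the exon found in 20 decay transcripts, chr4:135586153-135586512, has its first stop codon in the reading frame at base 5. This codon is the annotated end of the reading frame in 0 of these transcripts, so the sequence of the exon is not printed. It holds 6 copies of AGAA, searched on the sense strand with overlapping copies counted, a motif that Tra2β is known to bind, and 12.3% of the 1605 internal exons within 10% of its length hold at least as many. The exons of *Srsf3*, *Srsf4* and *Srsf9* hold no AGAA, and those of *Srsf5*, *Srsf7* and *Srsf11* hold 1 copy each. These counts describe the letters of the exons and not the binding of a protein.

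None of the 10 SR protein genes was called in *Tra2b-cPEko* against wild type testes, either by edgeR (adjusted p from 0.258 to 0.684), which called 0.157% of all genes, or by DESeq2 (adjusted p from 0.129 to 0.733), which called 2.79%. Of the 10 genes, 8 had a lower mean and 2 had a higher one, *Srsf5* and *Srsf11*. Over all genes tested, 50.3% had a log2 fold change below 0. The median log2 fold change was -0.06 over the 10 genes and -0.00 over all genes, and the median size of change was 0.067 over the 10 genes and 0.090 over all genes. An unadjusted p under 0.05 was found for *Srsf3* and *Srsf7* by edgeR, where 15.3% of all genes had one, and for *Srsf1*, *Srsf3*, *Srsf7* and *Srsf9* by DESeq2, where 15.7% had one. The 95% intervals of the changes lay between -12.8%, the lower bound of *Srsf9*, and 11.6%, the upper bound of *Srsf11*. Testes are mixed tissue, and fewer cells of a type cannot be told apart from less RNA per cell.

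**Figure D1:**
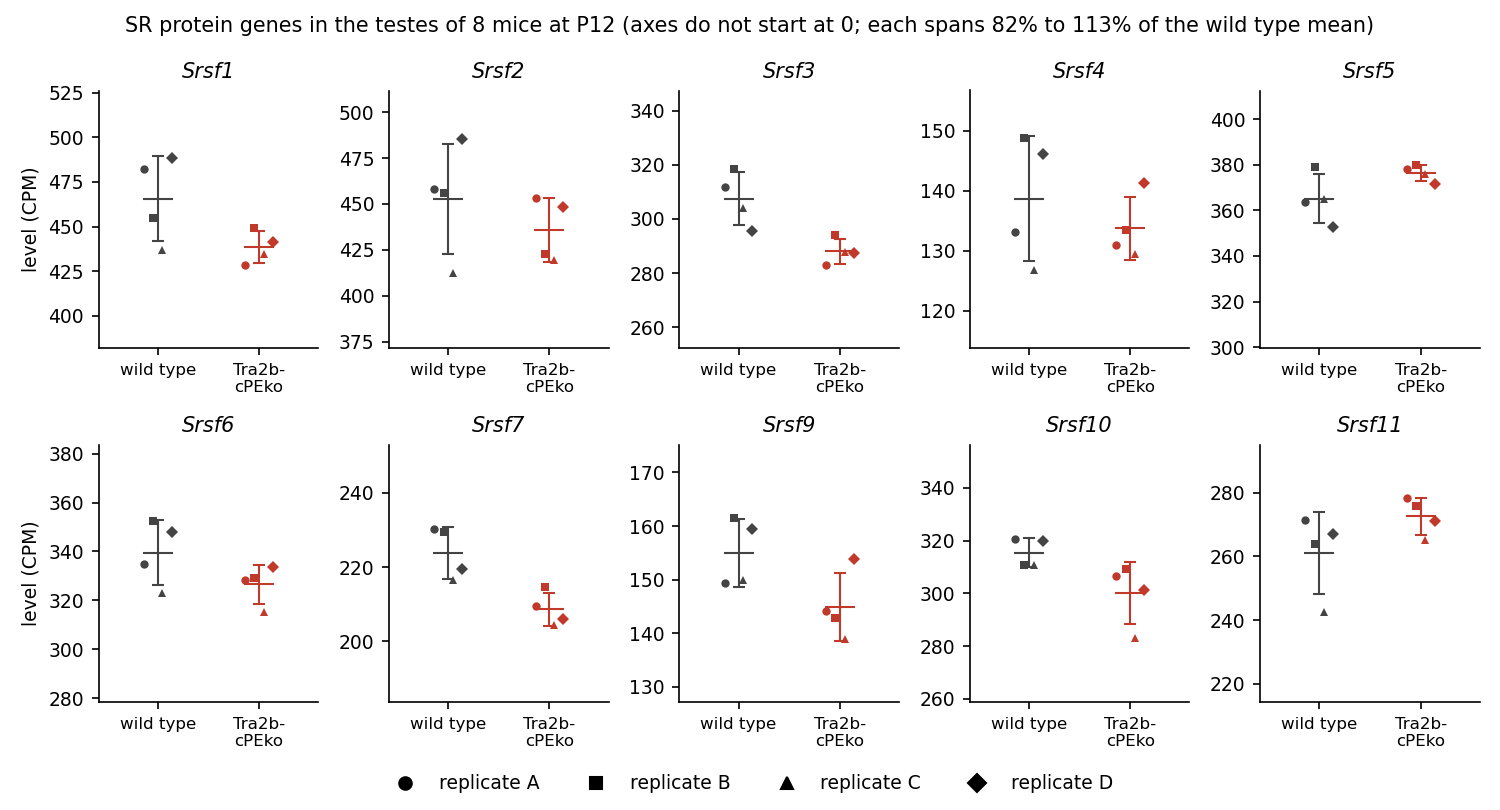
Level of each SR protein gene (CPM) in 4 wild type (grey) and 4 *Tra2b-cPEko* (red) testes, with 1 symbol per replicate letter and the mean with its SD as bars; the axes do not start at 0 and span the same percentage of the wild type mean. The genotypes lie apart for *Srsf3*, *Srsf7* and *Srsf10* and overlap for the other 7 genes.

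In 3 of the 10 genes every *Tra2b-cPEko* mouse lay below every wild type mouse, namely *Srsf3*, *Srsf7* and *Srsf10*, and 4.18% of all genes tested did so. In none of the 10 did every *Tra2b-cPEko* mouse lie above, which held for 4.36% of all genes. All 3 encode proteins with a single RNA recognition motif. The 10 genes were read from the same 8 libraries, so these are not separate observations.

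*Srsf3* (chr17:29251321-29262347, plus strand) encodes the smallest classical SR protein, which regulates splicing and the choice of polyadenylation site and serves as an adaptor for mRNA export. Its levels were 312, 319, 304 and 296 CPM in wild type replicates A to D, and 283, 294, 288 and 287 CPM in *Tra2b-cPEko* replicates A to D. The highest *Tra2b-cPEko* mouse lay just below the lowest wild type mouse. The change was -0.09 ± 0.039 on the log2 scale (SE), or -6.35% (95% interval -11.7% to -0.645%; edgeR adjusted p = 0.284).

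*Srsf7* (chr17:80507501-80514879, minus strand) encodes an SR protein with a zinc knuckle that, like Srsf3, hands mRNA to the export receptor Nxf1. Wild type mice had 230, 229, 217 and 219 CPM. *Tra2b-cPEko* mice had 209, 215, 204 and 206 CPM, again without overlap and with the highest of them close to the lowest wild type value. The change was -0.10 ± 0.040 on the log2 scale (SE), or -6.83% (95% interval -12.2% to -1.12%), with an edgeR adjusted p of 0.258.

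*Srsf10* (chr4:135583043-135602548, plus strand) encodes an SR protein that is close to the Tra2 proteins in sequence and becomes a repressor of splicing when it is dephosphorylated. Its levels were 321, 311, 311 and 320 CPM in wild type mice and 307, 309, 283 and 301 CPM in *Tra2b-cPEko* mice. The gap between the genotypes was narrow, from 309 to 311 CPM, and *Tra2b-cPEko* replicate C lay farthest from the rest. The change was -0.07 ± 0.041 on the log2 scale (SE; edgeR adjusted p = 0.428), and the 95% interval reached from -10.6% to 1.22%.

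*Srsf2* (chr11:116740723-116744518, minus strand), whose protein SC35 marks nuclear speckles, had 458, 456, 413 and 485 CPM in wild type and 453, 423, 419 and 448 CPM in *Tra2b-cPEko* mice. The genotypes overlapped, since wild type replicate C was the lowest of all 8 mice. The log2 fold change was -0.06 ± 0.053 (SE; edgeR adjusted p = 0.646). *Srsf11* (chr3:157716110-157742310, minus strand) encodes a more distant SR protein. Its levels were 271, 264, 242 and 267 CPM in wild type and 278, 276, 265 and 271 CPM in *Tra2b-cPEko* mice, and 2 of the 4 *Tra2b-cPEko* mice lay above all wild type mice. Its log2 fold change was 0.06 ± 0.044 (SE; edgeR adjusted p = 0.529), and 0.03 without wild type replicate C.

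The other 5 genes, *Srsf1*, *Srsf4*, *Srsf5*, *Srsf6* and *Srsf9*, encode proteins with 2 RNA recognition motifs. Their median log2 fold change was -0.06, beside -0.07 for the 5 genes with a single motif, and 4 of the 5 genes of either kind had a lower mean. *Srsf1* (chr11:87938129-87944581, plus strand), the founding SR protein gene, had 482, 455, 437 and 489 CPM in wild type and 429, 449, 435 and 441 CPM in *Tra2b-cPEko* mice. All 4 *Tra2b-cPEko* mice lay below the wild type mean, but wild type replicate C lay among them. The log2 fold change was -0.09 ± 0.045 (SE; edgeR adjusted p = 0.383).

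*Srsf9* (chr5:115465189-115476335, plus strand) is the closest relative of *Srsf1*. It had 149, 162, 150 and 159 CPM in wild type and 144, 143, 139 and 154 CPM in *Tra2b-cPEko* mice, and 3 of the 4 *Tra2b-cPEko* mice lay below all wild type mice. The change was -6.55%, with a 95% interval from -12.8% to 0.0953% (edgeR adjusted p = 0.333). *Srsf4* (chr4:131600816-131630471, plus strand), *Srsf5* (chr12:80986436-80997630, plus strand) and *Srsf6* (chr2:162773299-162780234, plus strand) form a closely related group. *Srsf4* had 133, 149, 127 and 146 CPM in wild type and 131, 133, 129 and 141 CPM in *Tra2b-cPEko* mice, with full overlap (log2 fold change -0.05 ± 0.055 SE, edgeR adjusted p = 0.684).

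*Srsf6* had 335, 352, 323 and 348 CPM in wild type and 328, 329, 315 and 334 CPM in *Tra2b-cPEko* mice. The genotypes overlapped, and the log2 fold change was -0.06 ± 0.042 (SE; edgeR adjusted p = 0.547). *Srsf5*, which encodes an SR protein that shuttles between nucleus and cytoplasm, had a fold change of the opposite sign to its relatives. It had 364, 379, 365 and 353 CPM in wild type and 378, 380, 376 and 372 CPM in *Tra2b-cPEko* mice, so that all 4 *Tra2b-cPEko* mice lay above the wild type mean while wild type replicate B reached their values. The log2 fold change was 0.04 ± 0.039 (SE; edgeR adjusted p = 0.617).

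**Figure D2:**
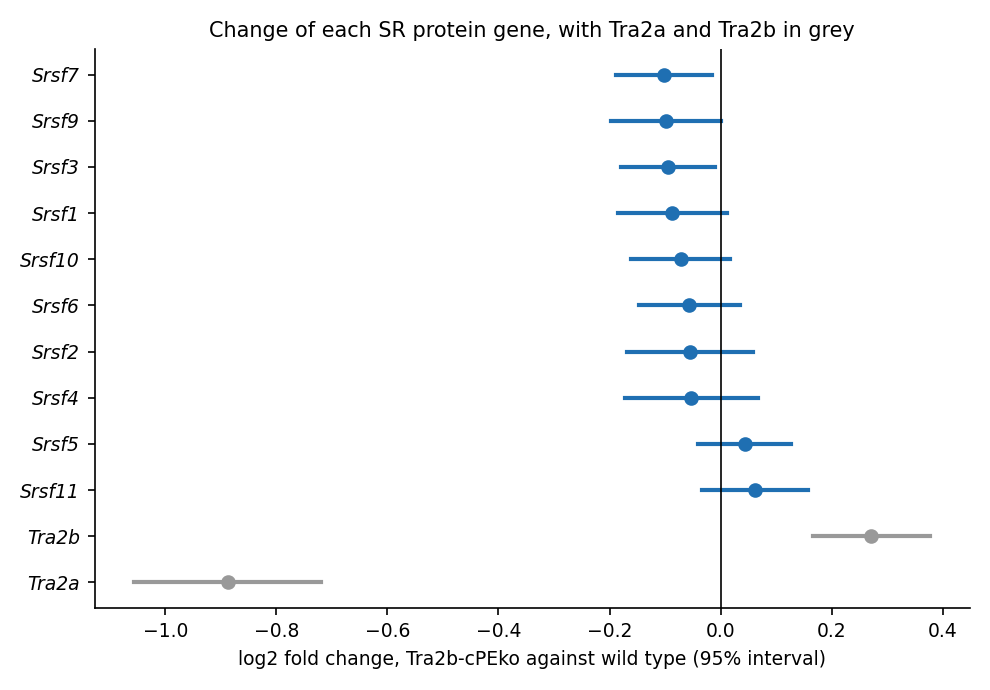
Log2 fold change of each SR protein gene (blue), *Tra2b* and *Tra2a* (grey) in *Tra2b-cPEko* against wild type testes, with 95% intervals from edgeR as lines. The intervals of *Srsf3* and *Srsf7* lie below 0 and those of the other 8 SR protein genes include 0, while *Tra2a* lies at -0.89.

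In two-sided exact permutation tests over the 70 arrangements of the 8 mice, *Srsf3*, *Srsf7* and *Srsf10* gave p = 0.0286, the smallest value that this design allows, and the other genes gave p from 0.0857 (*Srsf1* and *Srsf9*) to 0.429 (*Srsf4*). With 4 mice per genotype this smallest value is reached only where the genotypes do not overlap, so it restates the lack of overlap given above. Over all genes tested, the genotypes lay apart in this way for 4.18% with *Tra2b-cPEko* lower and for 4.36% with it higher. The p-values are not adjusted for the 10 genes. Each SR protein gene varied less between mice of the same genotype than the median gene. The SD within genotypes ranged from 0.0315 (*Srsf5*) to 0.0870 (*Srsf4*) on the log2 scale, against a median of 0.121 over all genes. That median includes genes with far fewer reads, and genes of like level were not compared.

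Mice of the same genotype differed in the SR protein genes as a group. In wild type replicate C, 9 of the 10 genes lay below the mean of their genotype, and *Srsf2* was farthest, at -0.13 on the log2 scale. In *Tra2b-cPEko* replicate C all 10 genes lay below that mean. The other 6 mice had 6 to 8 genes above it. With the C libraries of both genotypes left out, a choice made after these values were seen, 8 of the 10 again had a lower mean and none was called by edgeR, whose smallest adjusted p among them was 0.321.

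**Figure D3:**
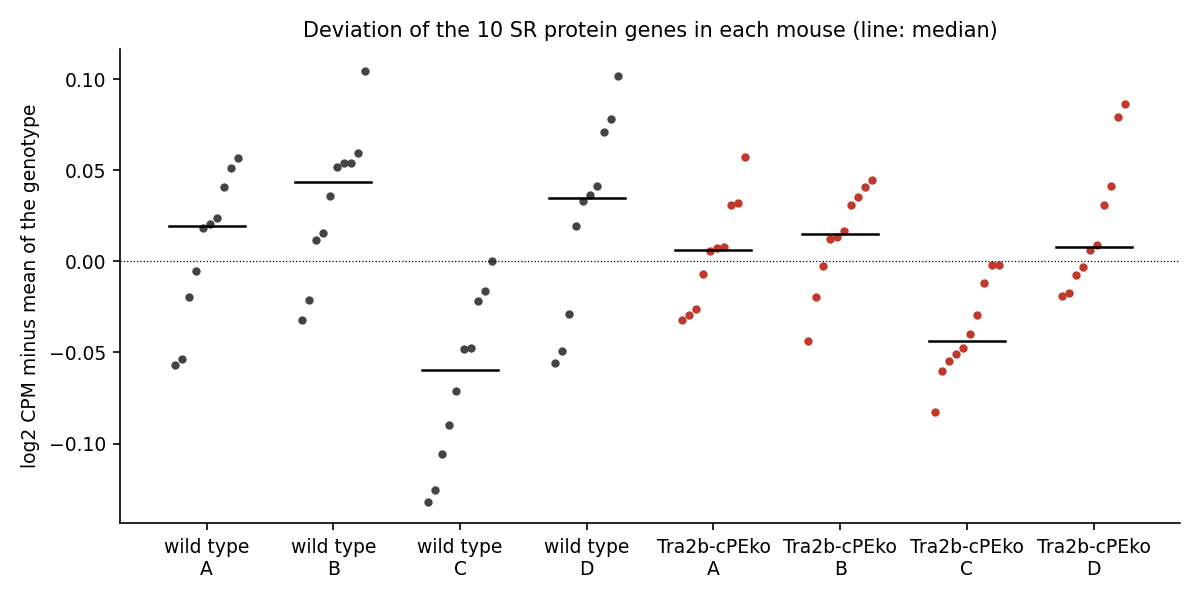
Log2 CPM of each of the 10 SR protein genes minus the mean of the genotype, by mouse (dots: genes in order of their deviation, grey for wild type and red for *Tra2b-cPEko*; line: median). The C library of each genotype has its median below 0, at -0.06 in wild type and -0.04 in *Tra2b-cPEko*, and the other 6 medians are above 0.

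Since wild type A and B stood apart in spermatocyte markers, the fit was repeated without them and, separately, without wild type C and D. These alternatives were chosen after the values were seen, and the part of the markers in the SR protein genes was not tested. Against C and D alone, the log2 fold change was -0.06 for *Srsf3* and -0.06 for *Srsf7*, and against A and B alone it was -0.14 and -0.15. For *Srsf5* it was 0.07 and 0.01, and for *Srsf11* 0.10 and 0.02. In both fits 8 of the 10 genes were lower and none was called, with a smallest edgeR adjusted p among the 10 of 0.509 and 0.0714, while edgeR called 1 gene and 1630 genes over the whole table.

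Summed over the 10 genes, the level was 3055, 3075, 2888 and 3082 CPM in wild type mice and 2941, 2951, 2854 and 2956 CPM in *Tra2b-cPEko* mice. The genotypes overlapped only through wild type replicate C. The means were 3025 ± 91.9 and 2926 ± 48.0 CPM (SD, n = 4 each), a difference of -3.29%, and no test is given for a sum over chosen genes. The difference of -99.6 CPM was -145 CPM without wild type replicate C and -61.5 CPM with upper-quartile factors in place of TMM.

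The makeup of the family was compared through the share of each gene in the summed counts of the 10 genes, a measure that does not depend on the scaling between libraries. *Srsf11* held 8.88%, 8.58%, 8.40% and 8.66% in wild type mice and 9.47%, 9.34%, 9.29% and 9.17% in *Tra2b-cPEko* mice. Every *Tra2b-cPEko* mouse lay above every wild type mouse, and the means differed by 0.689 percentage points (8.63% ± 0.203 against 9.32% ± 0.122, SD, n = 4 each). The two-sided exact permutation test gave p = 0.0286, the smallest possible. It was 1 of 10 such tests, without adjustment for their number, and shares of a fixed total are not independent of each other.

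*Srsf5* held 11.9%, 12.3%, 12.6% and 11.4% in wild type mice and 12.9%, 12.9%, 13.2% and 12.6% in *Tra2b-cPEko* mice. Here wild type replicate C, at 12.6%, lay just above *Tra2b-cPEko* replicate D, and the two-sided exact permutation test gave p = 0.0571. The means differed by 0.788 percentage points. The other 8 genes each held a smaller mean share in *Tra2b-cPEko* testes, with differences from -0.00916 (*Srsf4*) to -0.399 percentage points (*Srsf1*) and exact permutation p from 0.114 (*Srsf7*) to 1.0 (*Srsf4*). Per kb of transcript in place of counts, the share of *Srsf11* still had no overlap, with a difference of 0.577 percentage points.

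**Figure D4:**
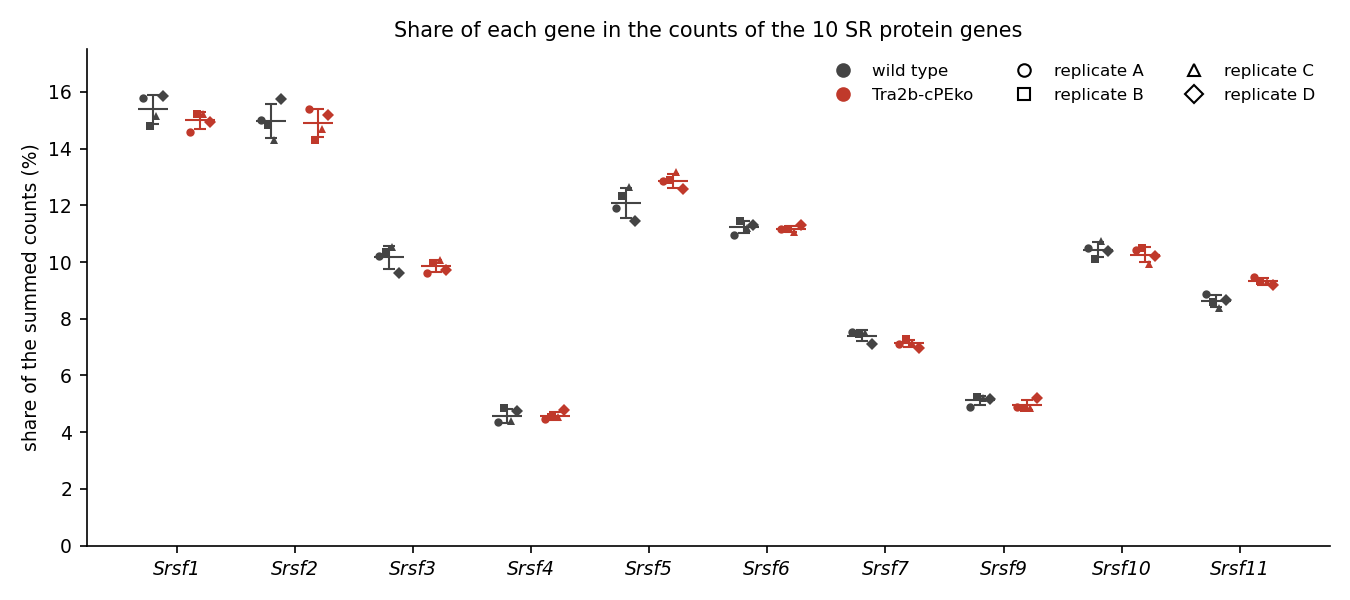
Share (%) of each gene in the summed counts of the 10 SR protein genes in 4 wild type (grey) and 4 *Tra2b-cPEko* (red) testes; symbols are replicate letters, and bars show the mean with its SD. Only for *Srsf11* do the genotypes lie apart, with wild type from 8.40% to 8.88% and *Tra2b-cPEko* from 9.17% to 9.47%.

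To compare the genes with each other, CPM was divided by the length of the canonical transcript. In wild type testes the level per kb ran from 194 ± 5.70 CPM per kb for *Srsf5* through 182 ± 12.0 for *Srsf2*, 133 ± 5.41 for *Srsf9*, 106 ± 3.42 for *Srsf3*, 103 ± 1.79 for *Srsf10*, 91.8 ± 2.86 for *Srsf7*, 85.7 ± 4.42 for *Srsf1*, 83.2 ± 4.10 for *Srsf11* and 71.4 ± 2.79 for *Srsf6* to 58.95 ± 4.45 for *Srsf4* (SD, n = 4). The highest and the lowest of these means were 3.29-fold apart, and 8.79-fold apart where the length of all annotated exons was used. Neighbours whose wild type ranges overlapped were *Srsf5* and *Srsf2*, *Srsf3* and *Srsf10*, *Srsf7* and *Srsf1*, and *Srsf1* and *Srsf11*. Within single mice of both genotypes, *Srsf5* lay above *Srsf2* in 7 of 8 and *Srsf7* above *Srsf1* in 7 of 8. *Srsf3* lay above *Srsf10* in 6 of 8, and *Srsf1* above *Srsf11* in 3 of 8. The order of these neighbours was therefore not the same in every mouse. In *Tra2b-cPEko* testes the order was the same except that *Srsf11*, at 86.8 ± 1.86 CPM per kb, stood above *Srsf7* (85.5 ± 1.84) and *Srsf1* (80.7 ± 1.62; SD, n = 4 each).

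This order rests on the length used. Divided by the length of all annotated exons, *Srsf2* came first and *Srsf1* second, and *Srsf9*, whose canonical transcript has 1170 bases of 10057 annotated, moved from the third to the ninth place. *Srsf4* was the lowest by both lengths.

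**Figure D5:**
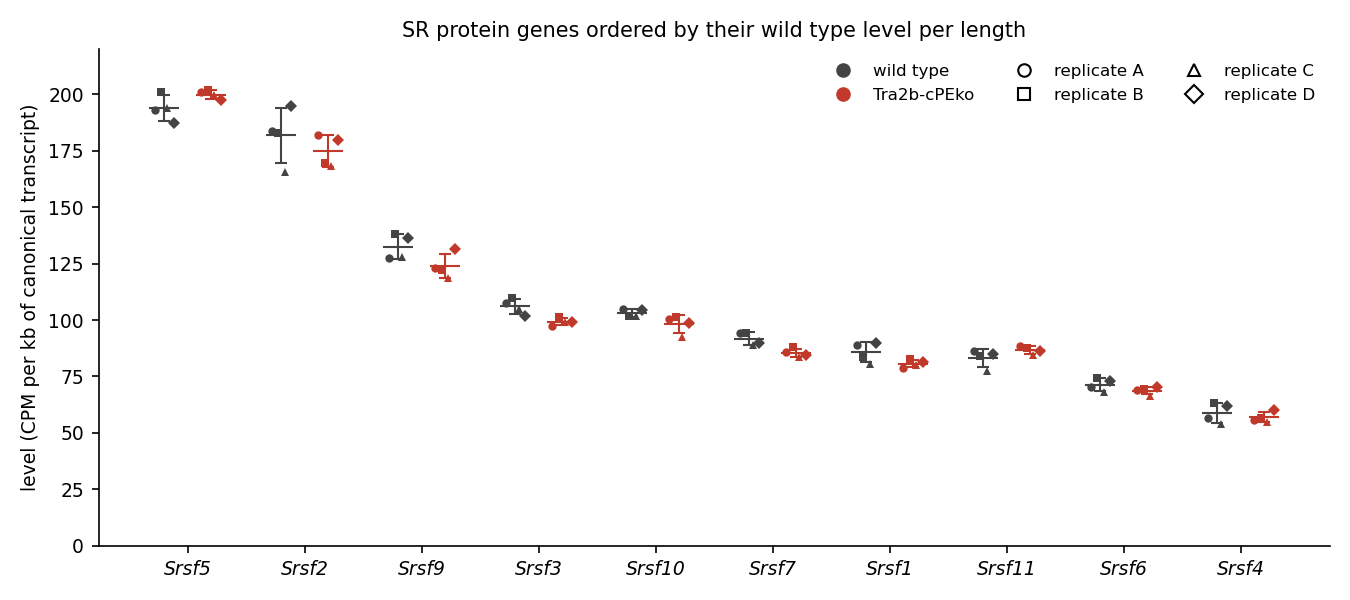
Level of each SR protein gene in CPM per kb of canonical transcript, ordered by the wild type mean, in 4 wild type (grey) and 4 *Tra2b-cPEko* (red) testes; symbols are replicate letters, and bars show the mean with its SD. *Srsf5* and *Srsf2* lie highest, near 194 and 182 CPM per kb, and *Srsf4* lowest, at 58.95.

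The genes that act with SR proteins were given by lists. Of 16 SR-related and SR-like genes, 1 was called lower (*Tra2a*) and none higher, with a median log2 fold change of -0.00. *Srsf12*, a further gene with the SR name, was low in all testes, at 2.003 ± 0.410 CPM in wild type and 1.997 ± 0.386 CPM in *Tra2b-cPEko* mice (SD, n = 4 each). Of 10 genes for the kinases and the importin that phosphorylate SR proteins and bring them into the nucleus, none was called and 1 had an unadjusted edgeR p under 0.05. This was *Srpk2*, an SR protein kinase, with 286 ± 7.83 and 316 ± 19.5 CPM (SD, n = 4 each; edgeR adjusted p = 0.204).

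Of 8 early spliceosome partners, the U1 and U2AF proteins that SR proteins recruit among them, none was called, and *U2af1* had the smallest unadjusted p (82.3 ± 5.02 and 76.1 ± 3.19 CPM, SD, n = 4 each; edgeR adjusted p = 0.325). The 6 mRNA export partners, had a median log2 fold change of -0.14, with 5 genes below 0, 3 with an unadjusted edgeR p under 0.05 and none called. The smallest p among them was that of *Alyref*, an export adaptor, with 86.4 ± 5.13 and 76.0 ± 4.25 CPM (SD, n = 4 each; edgeR adjusted p = 0.160). *Nxf1*, the receptor that takes mRNA from Srsf3 and Srsf7, had 193 ± 5.66 and 198 ± 3.75 CPM (SD, n = 4 each; edgeR adjusted p = 0.688). Of 10 nonsense-mediated decay factors, which act on transcripts with a poison exon, none was called, and *Upf3b* had the smallest p (60.9 ± 1.66 and 66.8 ± 1.61 CPM, SD, n = 4 each; edgeR adjusted p = 0.184). DESeq2 called none of the genes of these 4 lists and, of the 16 SR-related ones, *Tra2a* and *Tra2b*.

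Markers of some cell types differed between the genotypes beside these values, and their part in the levels of the SR protein genes was not tested. All 8 markers of differentiating spermatogonia had a lower mean, and their summed level was 746 to 821 CPM in wild type and 634 to 740 CPM in *Tra2b-cPEko* mice. Of them *Sohlh1*, a transcription factor gene of these cells, was called (edgeR adjusted p = 0.0341). All 8 macrophage markers had a higher mean, with sums of 120 to 141 and 145 to 173 CPM with none called by edgeR, 5 at an unadjusted edgeR p under 0.05 and 1 called by DESeq2. The summed spermatocyte markers of both lists were higher in wild type A and B than in the other 6 mice. The 10 Sertoli cell markers summed to 6326 to 6860 and 6359 to 7117 CPM. The Leydig cell markers summed to 588 to 634 and 599 to 830 CPM. The sums of undifferentiated spermatogonia, peritubular and endothelial markers overlapped as well, and no marker tested was at 0 in all mice.

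Several loci limit what the counts show. *Srsf2* overlaps *Mettl23* and *Mfsd11* on the other strand, and *Mfsd11* had at most 2129 reads per mouse against at least 15515 for *Srsf2*. A search that did not record the strand matched 662 identical bases between a transcript of *Srsf2* and one of *Mfsd11*. These may be the same overlap, read on the other strand. *Pnrc2* overlaps *Srsf10* by 3657 bases with at most 4019 reads, beside at least 11064 for *Srsf10*, and *Gatc* overlaps *Srsf9* by 8518 bases with at most 1197 reads, beside at least 5246. *Gm12992* overlaps *Srsf4* with at most 1204 reads, beside at least 4901. The strand setting of the counting was not stated, so reads of such pairs may not have been separated. Processed pseudogenes of at least 95% identity exist for *Srsf3* (5), *Srsf10* (2) and *Srsf5* (1), and reads that align to both may have been left out of the counts as not unique. *Srsf6* and *Srsf7* have neither an overlapping gene nor such a copy.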

How the data were processed

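Stranded mRNA libraries of whole testis from 4 wild type and 4 *Tra2b-cPEko* mice were analysed from the raw read counts per gene that the authors deposited, 1 table per mouse. The submitters' processing notes name HISAT2 2.2.1, SAMtools 1.7.1, HTSeq 2.0.2 and deepTools 3.5.1 with GRCm39, and the paper's methods name Salmon. The tables end with 5 summary lines in the form HTSeq writes, which were left out of library sizes and tests; reads on genes were 66.4% to 69.0% of all reads. Between mice of a genotype, the chi-square over genes was 6.24 to 19.1 per degree of freedom, above sampling noise, and each mouse counted as 1 replicate. The number of reads limits only counting error.

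The counts were tested in R 4.3.3 with edgeR 4.0.16 (filterByExpr with least count 10 and least total 15, TMM, robust quasi-likelihood test, genotype only) and Benjamini-Hochberg adjustment over 19104 genes, called under 0.05. Fold changes, SE and 95% intervals are from this fit, and CPM used TMM library sizes. DESeq2 1.42.0, limma-voom (limma 3.58.1), other scaling and filters, the replicate letter as a block and leaving out each mouse were alternatives. Each gene's log2 CPM and share were compared by two-sided exact permutation tests. The edgeR, limma-voom and DESeq2 fits were tested on simulated counts. Other steps used Python 3.11.15 and matplotlib 3.10.9. Positions, lengths and exons are from GENCODE vM39 on GRCm39, and copies were searched with BLAST+ 2.17.0 (at least 95% identity over 50% of a transcript).

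The members, gene lists and tests were chosen with earlier results of these data known. Named are the 10 genes, *Tra2b*, *Tra2a* and, of each pathway list, genes called and the one with the smallest p. *Srsf12*, *Nxf1*, *Sohlh1* and the overlapping genes were named in addition, after their values were seen. Counts per gene do not show splicing.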

Additional observations from a re-analysis of the deposited data

Results flagged for a closer look

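In each genotype, the highest and the lowest mouse were compared with the other 3 for the level and the share of each SR protein gene, over 40 groups of 4 values, of which about 2 would stand apart by chance. One did. The share of *Srsf9* in the summed counts was 5.20% in *Tra2b-cPEko* replicate D, and its gap to the nearest of the other 3 mice (4.90%, 4.84% and 4.87%) took 0.839 of the whole range, above the 95% critical value of Dixon's test for 4 samples. With this mouse left out, the difference in the share of *Srsf9* was -0.257 percentage points, beside -0.173 with all mice, and the exact permutation p was 0.0857.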

How the results depend on the processing

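None of the 10 SR protein genes was called under any of the 18 alternatives, and the log2 fold change of each kept its direction in all of them. Sizes were less stable: with a mouse left out, the log2 fold change ranged from -0.10 to -0.02 for *Srsf2* and for *Srsf4*, -0.08 to -0.04 for *Srsf6*, -0.09 to -0.05 for *Srsf10*, 0.02 to 0.06 for *Srsf5* and 0.03 to 0.08 for *Srsf11*. The smallest adjusted p among the 10 was 0.0714 (edgeR without wild type mice C and D, *Srsf7*), and 0.129 with DESeq2, and the number with an unadjusted p under 0.05 ranged from 0 (upper-quartile factors, and the fits that left out replicate B, or A and B, of wild type or C of *Tra2b-cPEko* mice) to 4. The share of *Srsf11* differed by 0.610 to 0.773 percentage points with a mouse left out. Its exact permutation p was 0.0286 each time, the smallest that the 35 arrangements of 7 mice allow. The differences in share that changed sign were those of *Srsf2* (-0.287 to 0.199 with a mouse left out), *Srsf4* (-0.0847 to 0.0768) and *Srsf6* (-0.148 to 0.0184), none past the threshold. With a mouse left out, the share of *Srsf5* differed by 0.577 to 0.976 percentage points (exact permutation p from 0.0286 to 0.114) and that of *Srsf7* by -0.367 to -0.220 (exact permutation p from 0.0286 to 0.2). The lowest p of *Srsf5* came without wild type replicate C, the mouse that overlapped, and that of *Srsf7* without wild type replicate D. The summed level differed by -145 to -75.8 CPM.

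The number of genes called over the whole table was 30. It became 507 with DESeq2, 11 with limma-voom, 58 with upper-quartile factors, 123 without the filter and 14 with a mean count of at least 50, 1 without wild type mice A and B and 1630 without C and D, and it ranged from 3 to 84 with a mouse left out (3 without *Tra2b-cPEko* replicate D, 84 without wild type replicate C). The fit with the replicate block called 67 genes and none of the 10. The deviations of same-letter mice correlated at 0.03, -0.14, -0.04 and 0.12 for A to D, and not every mouse correlated best with its own letter. Low correlations over all genes do not show whether the letters mark a litter or a batch, which was not tested. The cause of the differences in the number of genes called was not tested. Each of the 10 genes had at least 4901 reads per mouse, and the precision is limited by the spread between 4 mice per genotype.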
